A study of Mus musculus with 12 samples.

Results

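The mitochondrially encoded genes in the deposited expression table were 2 rows of 32494, the rows whose symbol begins with mt-. Both are ribosomal RNAs: mt-Rnr1 encodes the small-subunit and mt-Rnr2 the large-subunit rRNA of the mitochondrial ribosome. No messenger RNA and no transfer RNA carried such a symbol. A RefSeq table (GRCm38.p6) gives 37 genes on the mouse mitochondrial genome, with 13 protein-coding genes, 2 rRNAs and 22 tRNAs. Under RefSeq's own tRNA symbols (TrnE and so on), 19 of the 22 tRNAs had a row. They fall outside the symbol rule and are described apart from the rRNAs, which gives 21 mitochondrially encoded rows in all. No row was found for the 13 protein-coding genes or the tRNAs TrnD, TrnK and TrnS2 under RefSeq or GENCODE symbols. They were therefore not analysed here.

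The study sequenced messenger RNA from the hypothalamus of 12 male mice that all carried floxed Smc3 and all received tamoxifen. In the WT group (7 mice) the Camk2a-cre/ERT2 transgene was absent, and in the cKO group (5 mice) it was present. Camk2a regulatory sequence is mainly active in forebrain excitatory neurons, so the transgene is meant to act in part of the tissue, and recombination was not measured here. Smc3 encodes part of cohesin, a ring-shaped complex that folds and holds DNA. The labels place sampling 5 weeks after tamoxifen and give an age of 8 weeks without saying when, and mice are named by the number in their title.

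Animal mitochondrial DNA is copied into RNA from promoters in its control region, and each strand gives a long precursor. The tRNAs sit between most of the other genes and are cut out at both ends, which frees the rRNAs and mRNAs. Both rRNAs lie just behind the start of the precursor that also holds most of the mRNAs, and enzymes add short tails of A to them. Neurons draw heavily on oxidative phosphorylation, most of whose complexes combine mitochondrially and nuclear encoded subunits.

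On the mitochondrial chromosome of GRCm38, mt-Rnr1 spans chrM:70-1024 (955 bases) and mt-Rnr2 chrM:1094-2675 (1582 bases), both on the plus strand. The valine tRNA TrnV fills the 69 bases between them with no spare base on either side. The phenylalanine tRNA TrnF precedes mt-Rnr1 by 1 base. The leucine tRNA TrnL1 follows mt-Rnr2 directly and is itself followed by the protein-coding gene ND1. The glutamate tRNA TrnE lies on the minus strand directly before ND6. These 4 tRNAs are shown because the rRNA rows end at 3 of them and because their read counts span the whole observed range. Capitals mark the tRNA and lower case up to 30 bases of the neighbouring genes, read 5′ to 3′ on the gene's strand from GENCODE M21 transcripts.
TrnF (chrM:1-68, +): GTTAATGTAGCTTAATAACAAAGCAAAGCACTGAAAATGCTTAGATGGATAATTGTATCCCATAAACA
TrnV between mt-Rnr1 and mt-Rnr2 (chrM:995-1123, +): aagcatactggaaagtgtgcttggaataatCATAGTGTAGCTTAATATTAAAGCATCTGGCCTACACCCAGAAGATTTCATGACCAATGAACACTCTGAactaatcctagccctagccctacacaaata
TrnL1 between mt-Rnr2 and ND1 (chrM:2646-2780, +): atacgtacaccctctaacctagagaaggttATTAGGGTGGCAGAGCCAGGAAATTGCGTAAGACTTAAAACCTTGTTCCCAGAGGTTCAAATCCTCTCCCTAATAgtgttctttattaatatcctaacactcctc
TrnE before ND6 (chrM:14041-14139, -): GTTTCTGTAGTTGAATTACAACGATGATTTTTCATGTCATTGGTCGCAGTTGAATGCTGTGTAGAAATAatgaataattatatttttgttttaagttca

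Depth was 17.1 to 24.0 M reads (megareads) in 11 libraries and 68.7 M in WT 1. Smc3, the targeted gene, went against the labels: it was at 76.8 to 85.7 CPM (counts per gene scaled to library size by the authors) in the libraries labelled WT and at 116 to 144 CPM in those labelled cKO, and the limma adjusted p-value was 3.06e-05. Directions below therefore refer to the libraries labelled cKO. The hypothalamic identity of the tissue was uneven. Of 10 hypothalamic marker genes, such as those for the peptides Oxt, Pmch and Pomc, 9 reached a mean of 1 CPM (Agrp did not), and their summed level ran from 54.0 to 607 CPM in WT and from 118 to 662 CPM in cKO. A marker score, the mean of log2(CPM + 1) over these 9, was below 3 in WT 4 (2.67), WT 5 (2.30) and cKO 12 (2.79). The score was between 3.35 and 5.42 in the other 9 libraries. Main results are therefore also given for those 9 libraries, a choice made after the data were seen. Summed thalamic markers were at 1497 to 2517 CPM in WT and 1242 to 1694 CPM in cKO, and all 10 had a log2 fold change below 0. Of these, 5 were called lower, where 7.6% of all tested genes were.

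The large-subunit rRNA was the most abundant RNA of the table. By mean CPM over the 12 libraries, mt-Rnr2 ranked 1 of all rows, held that place in 9 libraries, and was never below rank 2. mt-Rnr1 ranked 8 by mean, with ranks of 3 to 11 across libraries. The rows rested on 81362 to 290535 reads per library for mt-Rnr2 and on 41916 to 158963 for mt-Rnr1. Together they took 0.623% to 0.955% of reads counted on the deposited rows in WT and 0.605% to 0.848% in cKO. No row of a mitochondrial protein-coding gene was found among them. Per kilobase of gene, the mean over all libraries was 2979 CPM for mt-Rnr2 and 2655 CPM for mt-Rnr1. These levels were read in libraries made from isolated mRNA, taken here as enriched for RNA with a poly(A) tail. Most RNAs on a list of those made without such a tail were scarce. Rn7sk, a nuclear regulator of RNA polymerase, was at 0.0895 to 0.414 CPM, and Rmrp, a processing RNA, at 0 to 0.237 CPM. Of 14 listed RNAs with a row, 1 passed the minimum of 1 CPM, and whether it lacked a tail in these libraries was not tested. This was the histone gene H2bc4, with a median of 13.7 and a highest value of 17.2 CPM in WT and with 15.6 to 19.5 CPM in cKO, with a log2 fold change of 0.27 (limma adjusted p-value 0.0259). Its correlation with mt-Rnr2 across the 12 libraries was r = 0.331 and rho = 0.364, with permutation p-values of 0.359 and 0.323 after adjustment over 37 relations, and r was 0.340 without WT 5 and cKO 13.

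Neither rRNA differed between the groups beyond the spread of the mice. In WT, mt-Rnr2 had a lowest value of 4000.5 CPM (WT 6), a median of 4224 and a highest of 6215 (WT 5). In cKO it was at 3882 CPM in cKO 8, 5149 in cKO 9, 4483 in cKO 12, 5586 in cKO 13 and 4815 in cKO 14. The group ranges overlapped almost wholly, since the highest library of all was WT 5 and the lowest was cKO 8. Means were 4662 ± 832 CPM (SD, n = 7) and 4783 ± 648 CPM (SD, n = 5), a ratio of 1.03. By limma the log2 difference for mt-Rnr2 was 0.04 with an SE of 0.12 and an adjusted p-value of 0.840. A two-sided exact permutation test gave 0.744. The 95% interval of the fold ran from 0.862 to 1.23.

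The small-subunit rRNA gave the same picture. In WT, mt-Rnr1 had a lowest value of 2105 CPM (WT 6), a median of 2321 and a highest of 3387 (WT 5). In cKO it was at 2093 CPM in cKO 8, 2734 in cKO 9, 2364 in cKO 12, 2960 in cKO 13 and 2481 in cKO 14. Again WT 5 was highest and cKO 8 lowest of all mice. Means were 2542 ± 469 CPM (SD, n = 7) and 2527 ± 334 CPM (SD, n = 5). By limma the log2 difference for mt-Rnr1 was 0.000343 with an SE of 0.12 and an adjusted p-value of 0.999, and the exact permutation test gave 0.997. The 95% interval of the fold was 0.836 to 1.20. Of the rRNAs, 0 of 2 passed the threshold by limma, 0 had an unadjusted p-value under 0.05, and edgeR's and DESeq2's tests on recovered reads also called 0. Across all 15359 tested genes limma called 2172 (14.1%), edgeR 13.7% and DESeq2 17.9%. The authors' deposited table lists log2 fold changes of 0.04 for mt-Rnr2 and -0.01 for mt-Rnr1, each with an FDR (false discovery rate) of 1. With the 9 libraries of higher hypothalamic marker score, limma gave 0.20 for mt-Rnr2 (adjusted p-value 0.213) and 0.16 for mt-Rnr1 (adjusted p-value 0.282). Both log2 differences were thus well above the 0.04 and 0.000343 of the main fit, but still not past the threshold. That set leaves out WT 4 and WT 5, the highest WT libraries for both rRNAs.

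**Figure D1:**
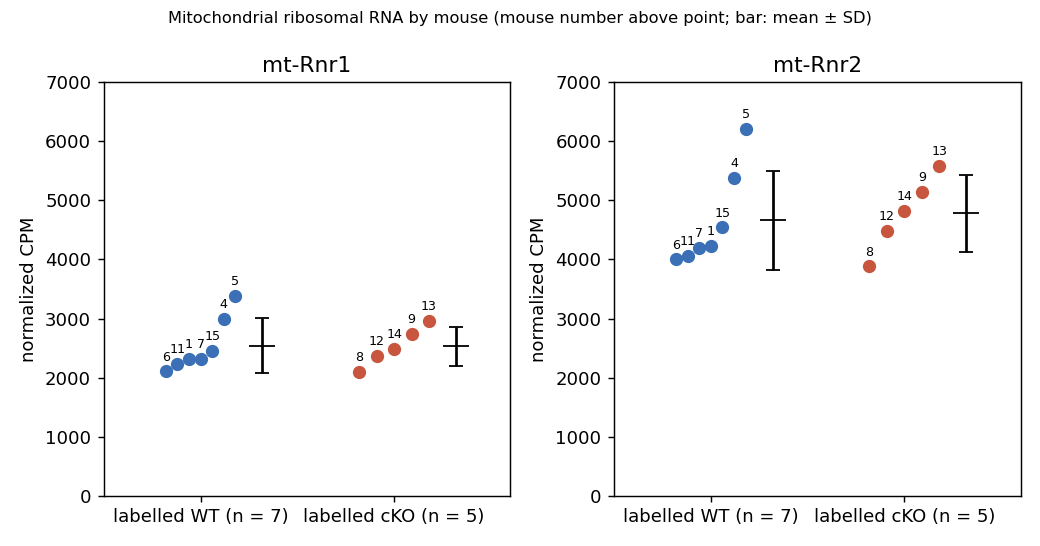
Normalized CPM of mt-Rnr1 (left) and mt-Rnr2 (right) in each mouse. Points are single libraries with the mouse number above them, bars the mean and SD of the 7 WT and 5 cKO libraries. WT 5 is the highest point and cKO 8 the lowest in both panels, and the groups overlap.

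Mice of the same group differed far more than the groups did. The coefficient of variation of mt-Rnr2 was 17.8% in WT and 13.6% in cKO, and that of mt-Rnr1 18.5% and 13.2%. On the log2(CPM + 1) scale, the within-group SD was 0.22 for mt-Rnr2 and 0.23 for mt-Rnr1, against a median of 0.12 over all tested genes. A larger SD was seen in 14.8% and 14.2% of tested genes, respectively. No value of either rRNA rests on fewer than 41916 reads. In WT the spread came from WT 4 (5388 CPM of mt-Rnr2) and WT 5, while the other 5 lay between 4000.5 and 4543 CPM.

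Both rRNAs moved together from mouse to mouse. Across the 12 libraries Pearson's r between them on the log2 scale was 0.988 and Spearman's rho 0.986, each with a permutation p-value of 1e-05, the smallest that the resampling allowed. The values adjusted over the 37 relations examined were 1.23e-04 for r and 3.70e-04 for rho. Without WT 5 and cKO 13, the libraries farthest from the median, r was 0.976. Within the WT group r was 0.995. No value is given for the 5 cKO mice alone.

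The balance between the rRNAs was far more even than their levels. The ratio of mt-Rnr2 to mt-Rnr1 reads was 1.80 (WT 4) to 1.90 (WT 6) in WT, with a median of 1.83. In cKO it was 1.85 in cKO 8, 1.88 in cKO 9, 1.90 in cKO 12, 1.89 in cKO 13 and 1.94 in cKO 14. All 5 cKO libraries lay above the WT median and 1 of 5 lay above the highest WT library, while 5 of 7 WT libraries lay below the lowest cKO value. Means were 1.84 ± 0.0339 (SD, n = 7) and 1.89 ± 0.0315 (SD, n = 5), and the counting standard error of a single ratio was 0.00570 to 0.0117. Such counting errors and intervals cover read sampling only, since reads carry no molecular identifiers. The ratio is given as a description and was not tested. Divided by gene length it was 1.09 to 1.17, so the large-subunit rRNA was read slightly more per base in every library.

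**Figure D2:**
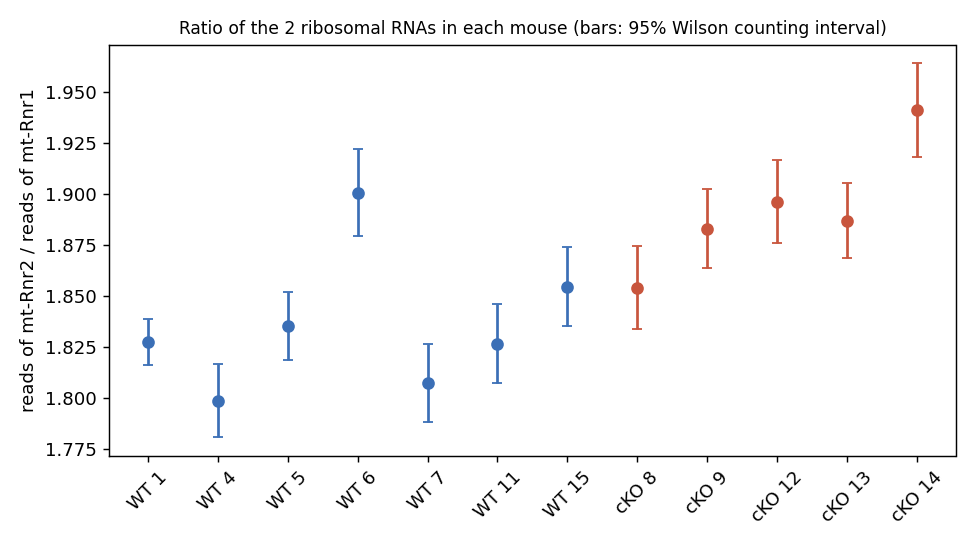
Ratio of mt-Rnr2 to mt-Rnr1 reads in each library, with bars for the 95% Wilson counting interval and an axis that does not start at 0. The WT libraries span 1.80 to 1.90 and the cKO libraries 1.85 to 1.94, with an overlap through WT 6 and WT 15.

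The tRNA rows together held 0.0334% to 0.0453% of reads in WT and 0.0368% to 0.0479% in cKO. A single tRNA dominated. TrnE, which carries glutamate, had a mean of 202 CPM and made up 49.0% to 55.0% of mitochondrial tRNA CPM in every library. Per kilobase its mean over all libraries was 2923 CPM, between those of both rRNAs. In WT it was 2810 CPM, between mt-Rnr1 at 2662 and mt-Rnr2 at 2947. In cKO it was 3081 CPM, above mt-Rnr2 at 3023. TrnE spans only 69 bases, so these figures depend on how reads crossing its ends were counted, which is not given. The next tRNA by mean CPM was TrnL1, directly behind mt-Rnr2, with a mean of 44.9 CPM. It was followed by TrnP for proline at 21.7 CPM, TrnI for isoleucine at 21.0 and TrnM, the methionine tRNA that also starts translation, at 18.6. TrnG (glycine, 16.8 CPM), TrnL2 (leucine, 14.6), TrnC (cysteine, 13.9) and TrnW (tryptophan, 9.74 to 15.4 over all libraries) formed a middle range. TrnR for arginine, TrnT for threonine, TrnY for tyrosine, TrnH for histidine and TrnN for asparagine had means of 2.74 to 5.43 CPM. Gene length, 66 to 75 bases over the 19 rows, varied little beside this range. By strand, summed mean CPM was 141 over 11 plus-strand tRNAs and 244.7 over 8 minus-strand tRNAs, of which TrnE gave 202.

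The remaining 5 tRNAs were close to unread. TrnF had 29 reads in all 12 libraries together, and no library had more than 8. TrnV, set between the most heavily read genes of the mitochondrial chromosome that were measured here, had 1 read in all, in cKO 12. By comparison mt-Rnr1 on its 5′ side had 762800 reads and mt-Rnr2 on its 3′ side 1413048. The glutamine tRNA TrnQ had 16 reads, the alanine tRNA TrnA 8 and the serine tRNA TrnS1 4. A level of 3 reads over the 306 M reads of all libraries is 0.00980 CPM. The counting rule for reads that span neighbouring genes and the fragment size kept in the libraries are not given in the sources used here. A read on a tRNA row may come from the finished tRNA or from a longer precursor, and these cannot be told apart. The strand setting is not given either, so reads from the opposite strand cannot be told apart. TrnI and TrnQ overlap each other by 3 bases, and TrnI, TrnW and TrnS1 overlap a protein-coding gene by 2 to 3 bases, so their rows are uncertain.

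**Figure D3:**
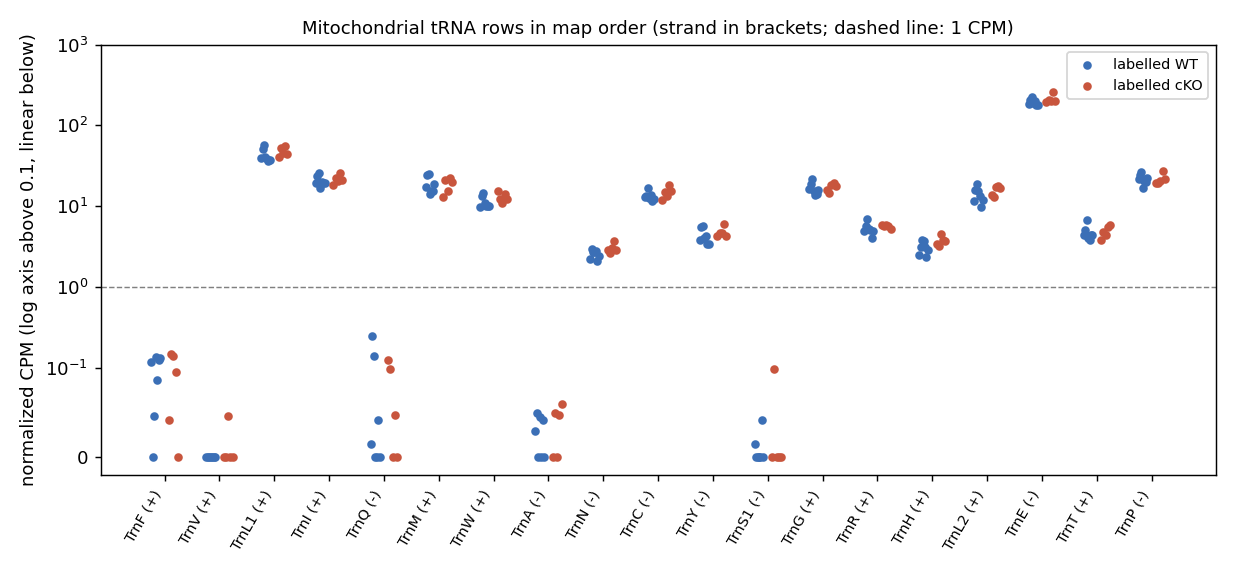
Normalized CPM of the 19 mitochondrial tRNA rows in map order, with 1 point per library and the strand in brackets. The vertical axis is logarithmic above 0.1 CPM and linear below it, and the dashed line is the minimum mean of 1 CPM for testing. TrnE stands highest with a mean of 202 CPM, and TrnF, TrnV, TrnQ, TrnA and TrnS1 lie under the line in all libraries.

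Of the 14 tRNAs at a mean of at least 1 CPM, 0 passed limma's threshold, and 0 had an unadjusted p-value under 0.05, a level that 31.1% of all tested genes reached. Group ranges overlapped for all 14, where 6.73% of all tested genes did not overlap. The log2 fold change was above 0 for 13 and below 0 for TrnM, with a median of 0.12 and a range of -0.02 to 0.22, while the median over all tested genes was 0.01. The genes are read from the same libraries and move together, so their signs are not 14 separate observations. The lowest bound of any 95% interval was -0.36 and the highest 0.47. In the authors' deposited table the smallest FDR among these 14 was 0.392, for TrnH.

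TrnE had a lowest value of 178 CPM, a median of 188 and a highest of 223 in WT. In cKO it was at 196 CPM in cKO 8, 207 in cKO 9, 203 in cKO 12, 256 in cKO 13 and 201 in cKO 14. All 5 cKO libraries lay above the WT median, and only cKO 13 lay above the highest WT library. By limma TrnE differed by 0.13 on the log2 scale, with an SE of 0.07 (adjusted p-value 0.237). An exact permutation test gave 0.136. TrnL1 was at 36.5 to 56.8 CPM in WT with a median of 39.4. It was at 40.3 CPM in cKO 8, 52.0 in cKO 9, 45.8 in cKO 12, 56.3 in cKO 13 and 43.8 in cKO 14. All 5 exceeded the WT median and none exceeded the highest WT value. Limma put the log2 difference at 0.15 with an SE of 0.12 (adjusted p-value 0.392).

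The smallest adjusted p-value among the tRNAs was that of TrnH, at 0.170. TrnH was at 2.35 to 3.86 CPM in WT and at 3.36, 3.19, 4.52, 3.85 and 3.73 CPM in cKO 8, 9, 12, 13 and 14. The log2 difference by limma was 0.22 with an SE of 0.10, and an exact permutation test gave 0.0669. TrnN, at 2.07 to 2.96 CPM in WT and 2.65 to 3.70 CPM in cKO, differed by 0.18 on the log2 scale with an SE of 0.09 (limma adjusted p-value 0.184) and had the smallest exact permutation p-value of the 14 tRNAs, 0.0518. TrnW gave 0.21 with an SE of 0.11 (limma adjusted p-value 0.212), with 9.74 to 14.7 CPM in WT and 11.1 to 15.4 CPM in cKO. In the 9 libraries of higher hypothalamic marker score, 2 of the 14 passed limma's threshold, both higher, where 12.7% of all tested genes passed and 5.49% were higher. These were TrnW, with a log2 fold change of 0.38 (adjusted p-value 0.0147), and TrnL1, with 0.30 (adjusted p-value 0.0480). That set leaves out WT 4 and WT 5, the highest WT libraries for both genes. TrnW was at 13.2 and 14.7 CPM there, and TrnL1 at 51.4 and 56.8 CPM. It also leaves out cKO 12, the lowest cKO library for TrnW. Without WT 5 alone, TrnW gave 0.27 and TrnL1 0.22, and neither passed. The direction of TrnM turned in the 9 libraries, to 0.21 (adjusted p-value 0.346). With libraries weighted by limma's arrayWeights, 5 tRNAs (35.7%) were called higher, where 33.4% of all tested genes were called and 15.7% were called higher. In that fit WT 1 carried a weight of 13.4 and every other library 2.02 or less.

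**Figure D4:**
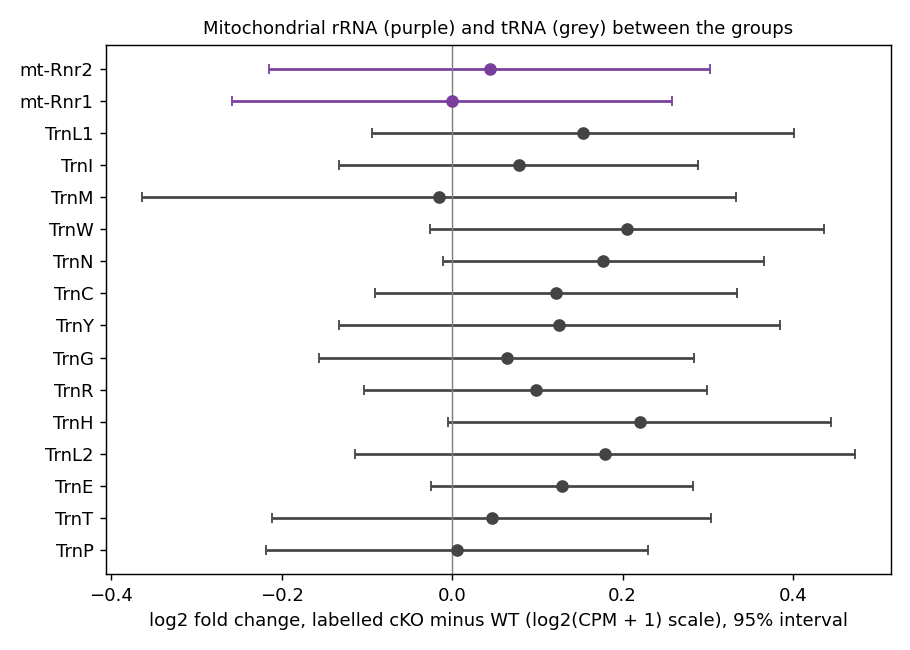
Limma log2 fold change (cKO minus WT, on the log2(CPM + 1) scale) of the 2 rRNAs in purple and the 14 tested tRNAs in grey, with 95% intervals. All 16 intervals include 0. The tRNA values lie between -0.02 and 0.22.

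The same few mice stood at the ends of most rows. Among the 16 tested mitochondrial rows, WT 5 was the highest WT library in 15, and cKO 13 was the highest cKO library in 12. At the other end, cKO 8 was lowest of its group in 10 rows, WT 11 in 7 and WT 6 in 5. Correlation with mt-Rnr2 across the 12 libraries ranged from r = 0.369 (TrnH) to 0.951 (TrnM) among the tRNAs, and 10 of 14 had a permutation p-value for r under 0.05 after adjustment over the 37 relations, 9 for rho. Without WT 5 and cKO 13 the range was 0.135 to 0.949. TrnE had r = 0.739 (adjusted permutation p-value 0.0147), and 0.564 without both libraries. TrnI had 0.943 and TrnL1 0.891. Correlation with mt-Rnr2 was thus high for TrnM and TrnI, and lower for TrnN (r = 0.441) and TrnH. TrnN rested on only 48 to 153 reads per library and TrnH on 57 to 173. Whether the correlations differ beyond read sampling was not tested.

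Marker scores of some other cell types correlated with mt-Rnr2 across the mice, and others did not pass adjustment. The oligodendrocyte list (10 of 10 genes measured, none at 0, among them the myelin gene Mbp) summed to 4408 to 10602 CPM in WT and 5208 to 10634 CPM in cKO. Its score was highest in WT 5 (8.54), cKO 13 (8.49) and WT 4 (8.43) and lowest in WT 6 (7.35) and cKO 8 (7.57). Its correlation with mt-Rnr2 was r = 0.785 (permutation p-value 0.00301, adjusted 0.0124) and rho = 0.776 (adjusted 0.0177), with 0.602 without WT 5 and cKO 13. Endothelial markers gave r = 0.764 (adjusted permutation p-value 0.0147), astrocyte markers 0.687 (adjusted 0.0366) and ependymal markers -0.696 (adjusted 0.0341). Without those 2 libraries the values were 0.522, 0.497 and -0.692. Neuronal markers gave 0.577 (adjusted permutation p-value 0.0875), hypothalamic markers -0.566 (adjusted 0.0956) and thalamic markers -0.0434 (adjusted 0.918). Without WT 5 and cKO 13 the values were 0.488, -0.263 and -0.0635. Within the WT group they were 0.679, -0.848 and -0.136. Cortical and striatal markers gave -0.595 (adjusted permutation p-value 0.0781), and -0.600 without WT 5 and cKO 13. Microglial markers gave 0.349 (adjusted permutation p-value 0.337), choroid plexus markers 0.393 (adjusted 0.282) and blood markers 0.534 (adjusted 0.112), and without WT 5 and cKO 13 these were 0.0286, -0.124 and 0.243. Depth gave r = -0.316 (adjusted permutation p-value 0.394) but rho = -0.720 (adjusted 0.0263). Between the groups, none of the oligodendrocyte, astrocyte, endothelial or microglial markers, 10 genes in each list, passed limma's threshold, where 14.1% of all tested genes passed (6.54% higher and 7.6% lower). At an unadjusted p-value under 0.05, reached by 31.1% of all tested genes, there were 0, 2, 0 and 2 of them. Of 8 ependymal markers, Pltp (log2 fold change -0.23, limma adjusted p-value 0.0265) and Tppp3 (0.22, limma adjusted p-value 0.0497) passed, in opposite directions. In that list 6 of 8 log2 fold changes lay above 0, with a median of 0.05. Of 10 cortical and striatal markers, 1 passed, Penk (-0.45, limma adjusted p-value 0.0143), and 5 lay above 0, with a median of -0.02. Of 9 hypothalamic markers tested, 1 passed, Sim1 (0.56, limma adjusted p-value 0.0206), and 6 lay above 0, while Oxt, Avp and Nr5a1 had log2 fold changes of -0.60, -0.56 and -0.43. The part of tissue makeup and depth in the rRNA levels was not tested, and in bulk tissue fewer cells of a type cannot be told apart from less RNA per cell.

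Most protein complexes of the respiratory chain, though not complex II, also take up mitochondrially encoded subunits. Nuclear genes for this chain were called higher in the libraries labelled cKO in 20 of 75 cases (26.7%), and 0 were called lower. Of all tested genes, 6.54% were called higher and 7.6% lower. All 75 log2 fold changes lay above 0, from 0.01 to 0.26, with a median of 0.17 against 0.01 over all tested genes. Complex I, which takes electrons from NADH, had 12 of 36 called higher, among them Ndufc1, Ndufa1, Ndufc2, Ndufa2 and Ndufa8. Complex III, the cytochrome bc1 complex, had 4 of 9: Uqcrq, Uqcrc2, Uqcr11 and Uqcrb. Complex II had Sdhb of 4 genes, complex IV Cox6b1 of 11, and complex V, the ATP synthase, Atp5e and Atp5j of 15. The differences were small. Uqcrq was at 72.9 to 81.4 CPM in WT, with a median of 76.1, and at 87.5 CPM in cKO 8, 87.8 in cKO 9, 83.3 in cKO 12, 99.8 in cKO 13 and 84.5 in cKO 14. Its groups did not overlap, which held for 5 of the 75 genes and for 6.73% of all tested genes. For Uqcrq limma gave a log2 difference of 0.21 with an SE of 0.05 (adjusted p-value 0.0130). Ndufc1 was at 32.3 to 37.4 CPM in WT, and at 40.7, 38.4, 40.2, 44.0 and 39.8 CPM in cKO 8, 9, 12, 13 and 14. Its log2 difference was also 0.21 with an SE of 0.05 (limma adjusted p-value 0.0134). The largest value of the list was that of Ndufa1, 0.26 with an SE of 0.06 (limma adjusted p-value 0.0172).

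This count leaned on single libraries. It was 4 without WT 1, 5 without cKO 13, and 31 without WT 5, in fits that called 3.22%, 4.42% and 6.75% of all tested genes higher. It was 8 without WT 11 or without cKO 9 (4.38% and 4.39% of all tested genes higher), 11 without WT 6 or without WT 15 (4.93% and 5.89%), and 13 without cKO 8 or without cKO 12 (4.85% and 6.02%). All these list members were higher. Among the alternatives it was 13 when CPM were recomputed on reads of other genes, 56 with arrayWeights and 27 in the 9 libraries of higher hypothalamic marker score. These fits called 4.97%, 15.7% and 5.49% of all tested genes higher. With median centring of each library it was 30, where 8.97% of all tested genes were called higher and 6.86% lower. The 9 libraries leave out WT 5 and WT 4, which had the highest WT scores of this list (6.52 and 6.46). The list's score was highest in cKO 13, at 6.72, where the mitochondrial rRNAs were also highest of their group. Across the 12 libraries its correlation with mt-Rnr2 was r = 0.632 (adjusted permutation p-value 0.0553) and rho = 0.594 (adjusted 0.0852). Without WT 5 and cKO 13 r was 0.464, and within the WT group 0.793. In the main comparison of the groups, 5 of 10 thalamic markers were called lower and 2 of 10 neuronal markers (Map2 and Stmn2) higher. Of all tested genes, 7.6% were called lower and 6.54% higher. Among all 10 neuronal markers, 7 had a log2 fold change above 0, and the lowest value was -0.06. Their part in the respiratory chain result was not tested. Whether the nuclear genes differed from the mitochondrial RNAs in their change was not tested either.

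Across 165 nuclear genes of mitochondrial gene expression, 15 were called higher (9.09%) and 3 lower (1.82%), beside 6.54% and 7.6% of all tested genes. The log2 fold change was above 0 in 127 of the 165, with a median of 0.08. Without WT 1 the total was 7, without cKO 13 it was 8, without WT 11 it was 9, and with arrayWeights it was 60 (36.4% of the list). These fits called 7.55%, 10.1%, 10% and 33.4% of all tested genes. None of 10 genes for transcription of mitochondrial DNA passed by limma, and 3 of the 10 had an unadjusted p-value under 0.05, as had 31.1% of all tested genes. The mitochondrial RNA polymerase Polrmt had a log2 fold change of -0.13 (limma adjusted p-value 0.135), and Tfam, which packs mitochondrial DNA and opens its promoters, one of 0.06 (limma adjusted p-value 0.546). None of 10 genes for replication and upkeep of mitochondrial DNA passed either, and 1 had an unadjusted p-value under 0.05, beside the same 31.1%.

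The shares called in the smaller lists rest on few genes and stand beside 6.54% of all tested genes called higher and 7.6% called lower. Among 21 genes for RNA processing and stability, 3 rose (14.3%): Ptcd2 by 0.30 on the log2 scale with an SE of 0.06 (limma adjusted p-value 0.0112), Fastkd2, an RNA-binding protein of the mitochondrial ribosome pathway, by 0.21, and the ribonuclease Rexo2 by 0.14. The enzymes that cut at tRNA ends were not called. Elac2, which cuts at the 3′ end, had a log2 fold change of 0.02, and the 5′ cutting subunits Trmt10c, Hsd17b10 and Prorp had 0.14, 0.15 and 0.04. Lrpprc, which holds mitochondrial mRNAs stable, had 0.03 (limma adjusted p-value 0.681). In tRNA modification, Mto1 rose by 0.16 and Gtpbp3, its partner in modifying the wobble base, had a log2 fold change of -0.18, both past the threshold among 10 genes measured. Of 17 mitochondrial tRNA synthetases, 2 were called higher (11.8%), among them Yars2 for tyrosine, which rose by 0.21. Of 11 translation factors, 3 passed: Mtif3 and Mrrf rose by 0.22 and 0.16, and Gfm2 fell by 0.21 with an SE of 0.05 (limma adjusted p-value 0.0153).

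Proteins of the mitochondrial ribosome, which the rRNAs join, had 7 of 78 genes called higher and 0 lower (8.97%, where 6.54% of all tested genes were called higher and 7.6% lower). The log2 fold change was above 0 in 73 of the 78, with a median of 0.10 against 0.01 over all tested genes. Mrps12 had the smallest adjusted p-value. It was at 30.6 to 34.1 CPM in WT, with a median of 32.2, and at 36.6 CPM in cKO 8, 38.6 in cKO 9, 35.4 in cKO 12, 41.2 in cKO 13 and 36.1 in cKO 14, so the groups did not overlap. This held for 2 of the 78 genes, and for 6.73% of all tested genes. For Mrps12 limma gave a log2 difference of 0.22 with an SE of 0.04 (adjusted p-value 0.00970). Mrps23 (0.27), Mrpl46 (0.28), Mrps35 (0.25) and Mrps27 (0.22) were next. Of 8 regulators of mitochondrial biogenesis, Ppargc1b was lower, with a log2 fold change of -0.23, and its relative Ppargc1a was not called (0.09, limma adjusted p-value 0.670).

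**Figure D5:**
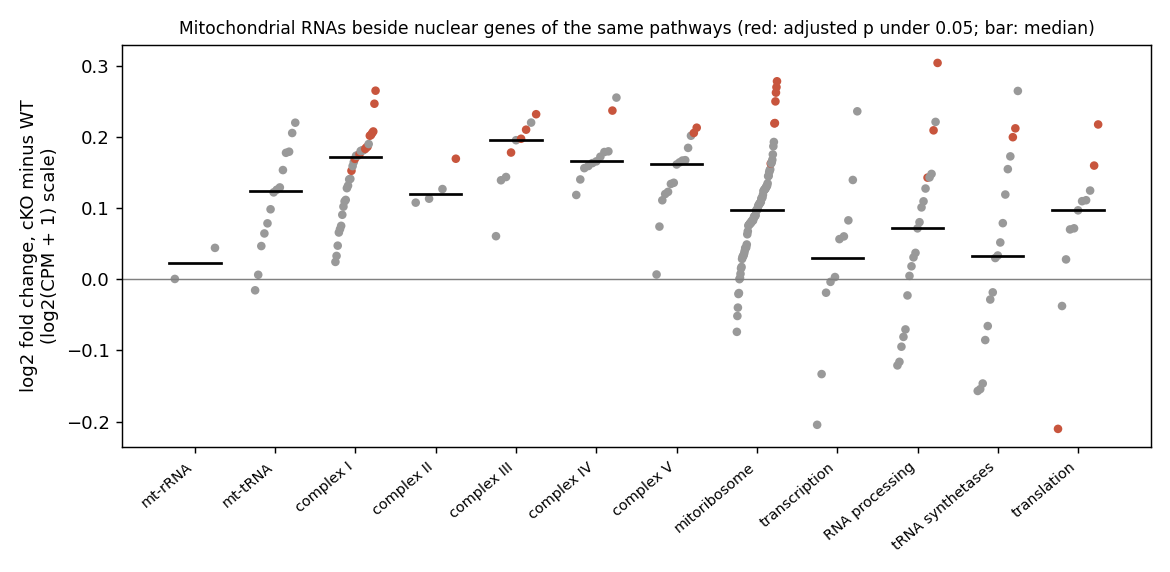
Limma log2 fold changes (cKO minus WT) of the mitochondrial rRNAs and tested tRNAs beside nuclear genes grouped by role, with 1 point per gene, a bar at each median and adjusted p-values under 0.05 in red. The respiratory chain groups lie wholly above 0, and neither mitochondrial group holds a red point.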

How the data were processed

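RNA was measured in hypothalamus of 12 mice. Per the labels' protocols, mRNA was isolated from total RNA and libraries were made with a NEBNext Ultra II RNA kit. The submitters' processing notes name bcl2fastq, FastQC 0.11.9, STAR 2.7.9a, SAMtools, Subread and featureCounts. Genome build, annotation, strand setting and counting options are not given in the sources used here. The authors deposited normalized CPM for 32494 genes, and a table of their test with log2 fold change, log2 mean CPM, p-value and FDR. The deposited CPM were whole multiples of 1 step per library (100% of values within 0.01 read), which gave whole reads. The implied scaling was that of edgeR's TMM, 0.987 to 1.02. All columns were matched to samples by name, and 0 were unused.

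The main test was limma 3.58.1 (R 4.3.3; lmFit, eBayes with trend) on log2(CPM + 1) for 15359 genes whose mean reached 1 CPM. Benjamini-Hochberg adjustment ran over all of them, with a threshold of 0.05, and without covariates. Single genes were also compared by a two-sided exact permutation test over 792 splits (smallest p-value 0.00126). Correlations used 100000 permutations. As alternatives, DESeq2 1.42.0 and the quasi-likelihood test of edgeR 4.0.16 were run on the recovered reads and called 2747 and 2097 genes. On simulated counts limma recovered 198 of 198 genes changed by 1 log2 unit, with 14 false calls among 15335. These counts had the same dispersion for every gene and no shared library effects. The simulation therefore does not measure how well changes as small as those of the mitochondrial rows are found. Within-group library pairs (31) had a chi-square of 3.04 to 26.3 per degree of freedom, so each library counted as 1 sample. No label says how the mice relate beyond their genotype, and p-values measure the spread between these libraries. A level of 3 reads was 0.0436 to 0.178 CPM.

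Symbols were matched to RefSeq (GRCm38.p6) and GENCODE M21. BLAST 2.17.0 found 0 other GENCODE transcripts sharing at least 50 bases at 90% identity with the rows described. The nuclear genome itself was not searched. Genes named by rule were the mt- rows, tRNAs of at least 1 CPM, Smc3 and up to 5 called genes of smallest adjusted p-value per list. Other genes were named outside this rule, among them Rn7sk, Rmrp, Mbp, Oxt, Avp, Nr5a1, Polrmt, Tfam, Lrpprc and Ppargc1a. The unread tRNAs and the uncalled enzymes were named after their values were seen. Members and lists were chosen with earlier results of these data known. The word control stands in every sample title and was not used.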

Additional observations from a re-analysis of the deposited data

Results flagged for a closer look

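Within-group values were screened for a library set far from the rest, and 4 of 42 groups of values had one, where chance gives about 2.1 (1 in 20). TrnC was at 16.7 CPM in WT 5, with 13.7 CPM the next highest WT value. TrnY was at 6.03 CPM in cKO 13, with 4.71 CPM next. TrnE was at 256 CPM in cKO 13, with 207 CPM next. Depth was 68.7 M reads in WT 1, with 24.0 M next. For the rRNAs and for their ratio no library stood apart by this measure.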

How the results depend on the processing

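No paired analysis was possible because the groups share 0 mouse numbers. The rRNA count stayed at 0 in all 12 alternatives and when each of the 12 mice was left out. The log2 fold change of mt-Rnr2 was 0.03 to 0.20 over alternatives and turned to -0.0147 without cKO 13 (range over left-out mice -0.0147 to 0.117). That of mt-Rnr1 turned to -0.0122 with CPM recomputed on reads of other genes, -0.0171 in edgeR and -0.0194 in DESeq2, and ran from -0.0593 to 0.0725 over left-out mice. The tRNA count was 5 with arrayWeights and 2 in the 9 libraries of higher hypothalamic marker score (added after seeing the data), and 0 otherwise. TrnM turned to 0.0962 with arrayWeights and 0.208 in the 9 libraries, with -0.0923 to 0.0958 over left-out mice. TrnP turned to -0.00574 with CPM recomputed on reads of other genes, -0.0483 with arrayWeights, -0.000670 in edgeR and -0.00341 in DESeq2, with -0.0782 to 0.0543 over left-out mice. TrnT ran from -0.0122 to 0.123 over left-out mice. Of 332 tRNA values, 310 kept direction and side of the threshold. The cause of these changes was not tested.

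All genes called numbered 1158 (without WT 1) to 2302 (without WT 5) over left-out mice and 5126 with arrayWeights. Respiratory chain genes called numbered 4 to 31 over left-out mice, 13 with CPM recomputed on reads of other genes and 56 with arrayWeights; the latter pair was added after seeing the data. Mitochondrial gene expression genes called numbered 7 to 21 over left-out mice and 60 with arrayWeights. Under a 5 CPM minimum there was no value for TrnT, TrnY, TrnH and TrnN. Alternatives planned for mitochondrial mRNAs were not run, since no row was found for those. Shares of reads moved by less than 1 SD in every setting tried. The 5 tRNAs with 1 to 29 reads in all lay under the CPM minimum and were not compared between the groups. The part of depth in their low counts was not tested.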
